A study of Schizosaccharomyces pombe with 2 samples.

Results

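Heat shock and chaperone genes of the fission yeast Schizosaccharomyces pombe were followed in poly(A) site reads, which mark where polyadenylated RNA ends. The 8 genes were hsp9, hsp16, hsp104, hsp78, ssa1, ssa2, wos2 and mcp60, found by symbol among 5113 protein-coding genes of the RefSeq annotation. They were chosen by name with their same-strand read counts and end positions in both libraries already known, so those values are a description and carry no test. All 8 had at least 20 reads, the minimum used throughout. Coordinates and sequences come from the RefSeq genome, whose header names ASM294v3; the deposited positions, labelled ASM294v2, lined up with it.

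Total RNA came from 2 strains, with 1 library each. In nmt1-SEB1, the thiamine-repressible nmt1 promoter drives seb1, whose product binds RNA and resembles Nrd1 of budding yeast. The other strain is labelled wild type, and both were grown in minimal medium with thiamine. nmt1-SEB1 is a knock-out in some labels and a knockdown in the design text, and seb1 itself still had 826 reads against 1848 in wild type (ratio 0.362, 95% interval 0.333 to 0.393). The libraries held 3376142 and 2702105 reads. With 1 library per group no difference has a replicate check, and every interval below covers counting error only.

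Heat shock proteins are molecular chaperones: they bind unfolded proteins, help them fold, and with partner ATPases pull aggregates apart. Many of their genes are induced by heat shock factor, which binds repeats of the heat shock element in the promoter, and several are also expressed in unstressed cells. Polyadenylation ends each messenger RNA at a cleavage site in the 3′ untranslated region (UTR), and a gene with several sites can make RNAs with short or long UTRs. UGUA, TGTA in DNA, is an element known for recruiting 3′ end factors, and GTA is known from the binding sites of Nrd1-like proteins.

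The 8 genes did not differ in 1 direction. Levels are in RPM, a gene's part of all gene-assigned reads scaled so that 1 read is worth 0.301 (nmt1-SEB1) or 0.372 (wild type); each transcript gives 1 read at its 3′ end, so gene length does not enter. A gene was called higher or lower when the RPM ratio of nmt1-SEB1 over wild type was at least 2 or at most 0.5 and its exact binomial 95% interval excluded 1. By this rule hsp9, wos2 and hsp78 were higher (3 of 8, where 26% of 4701 coding genes were higher), ssa1 and mcp60 were lower (2 of 8, where 17% were lower), and hsp16, hsp104 and ssa2 were neither. The median log2 ratio was -0.09 for the 8 genes and 0.20 for coding genes. In wild type the levels ran from 733 RPM for hsp104 and 611 for ssa2 through wos2 (266), mcp60 (243), ssa1 (232) and hsp9 (173) to hsp78 (17.5) and hsp16 (15.6). The Poisson intervals of wos2, mcp60 and ssa1 overlap, as do those of hsp78 and hsp16. In nmt1-SEB1 the order was wos2, hsp9, ssa2, hsp104, ssa1, hsp78, mcp60 and hsp16, with no overlap of neighbouring intervals. Together the 8 genes took 0.484% of gene reads in nmt1-SEB1 against 0.229% in wild type. Most of their 16074 reads in nmt1-SEB1 were those of wos2 (6398) and hsp9 (5677). Of the other genes, only hsp78 had a ratio above 1. In bulk RNA, fewer cells carrying a transcript and less of it per cell cannot be told apart.

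**Figure D1:**
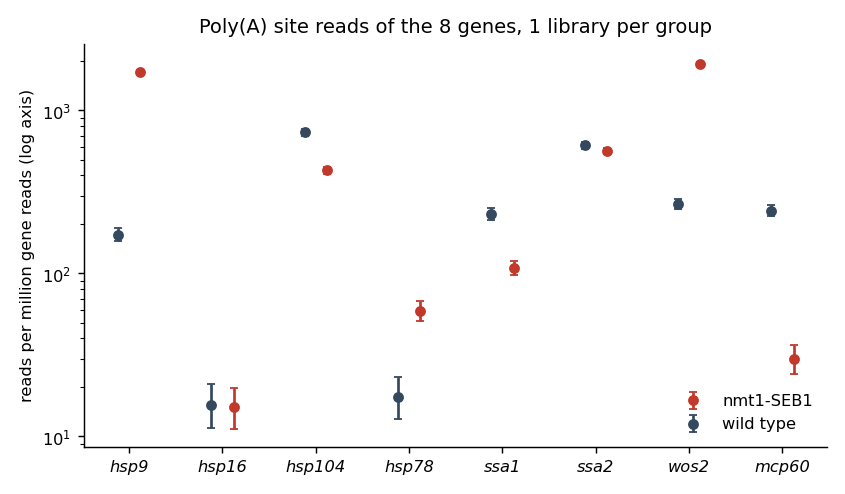
RPM (log axis) of each gene in nmt1-SEB1 (red) and wild type (dark), 1 library each; bars are exact Poisson 95% intervals, which cover counting error only. hsp9 and wos2 stand at 1710 and 1927 in nmt1-SEB1 against 173 and 266 in wild type, and mcp60 at 29.8 against 243.

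Scaling touches these calls. Trimmed-mean scaling (TMM) lowered all log2 ratios, with a shift of -0.65, and left 3 genes higher and 3 lower. Of all tested coding genes, 14.2% were then higher and 32.2% lower. With median-of-ratios scaling the shift was -0.79, and 2 genes were higher and 3 lower. The shares of coding genes were then 12.2% and 36.2%. Under both scalings the part of the genes called lower was near that of all coding genes. hsp104 joined the lower genes under both (log2 -1.42 and -1.56), and hsp78 was no longer called higher under median-of-ratios (0.96). Both changes follow from a shift that every gene shared. hsp9, wos2, ssa1 and mcp60 kept their calls under both scalings.

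wos2, which encodes the p23 co-chaperone of Hsp90, showed the largest difference in distal site use. It lies on chromosome I (SPAC9E9.13, 4467887 to 4469089, minus strand) and has 2 exons. wos2 had 6398 reads in nmt1-SEB1 against 716 in wild type, that is 1927 and 266 RPM, a ratio of 7.24 (6.70 to 7.83); 5.13% of coding genes had a higher ratio. In wild type, 70.7% of the reads past the stop codon ended in a cluster 48 nt past it, and 17.4% in another at 220 nt. In nmt1-SEB1, 98.2% ended in a cluster 451 nt past the stop codon, which is 102 nt beyond the annotated gene end. The main ends of wos2 RNA were thus different in each library.

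The sites differed in opposite directions. The wos2 cluster at 451 nt had 6277 reads in nmt1-SEB1 against 30 in wild type (ratio 170, 119 to 251). The cluster at 48 nt had 23 and 504 (27.0-fold lower in nmt1-SEB1). Of the reads in both clusters the distal one held 99.6% (Wilson interval 99.5 to 99.8) against 5.62% (3.96 to 7.91). The additional wos2 reads lay at the distal site, and the proximal one was nearly empty. The sequences at both sites are shown because they are the main wos2 ends of each library; the capital A is the last base of the most used read end, and no TGTA lies within 100 nt after the proximal one.
wos2 proximal site (chrI:4468173-4468202, minus strand): ccattttatcttttAcgtttcatacaaaat
wos2 distal site (chrI:4467770-4467799, minus strand): taaattttaaacagAgtcatttaattgagg

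The next gene on the wos2 strand, abc1, begins 201 nt past the annotated wos2 end. It had 207 and 129 reads (ratio 1.30, 1.04 to 1.63), below the 2-fold rule. RNA that runs on from wos2 into abc1 would be counted for abc1.

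hsp9, a small heat shock protein gene of the family of budding yeast Hsp12, was also higher, at its main wild-type site as well as at a distant one. It lies on chromosome I (SPAP8A3.04C, 5319957 to 5320676, minus strand) in a single exon. hsp9 had 5677 reads in nmt1-SEB1 against 465 in wild type, that is 1710 and 173 RPM, a ratio of 9.89 (8.997 to 10.9), and 3.34% of coding genes had a higher ratio. The proximal cluster, at 354 nt, took 80% of the hsp9 reads past the stop codon in wild type and 42.7% in nmt1-SEB1. The distal cluster, at 945 nt, held 4.78% and 46.4%.

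In read numbers, the proximal cluster of hsp9 had 2423 reads in nmt1-SEB1 against 368 in wild type (ratio 5.33, 4.78 to 5.97). The distal cluster had 2629 and 22 (ratio 96.8, 63.8 to 155). So hsp9, unlike wos2, was higher in nmt1-SEB1 at both of its clusters. Smaller clusters at 803 and 1103 nt had 181 and 108 reads in nmt1-SEB1 against none in wild type, at least 48.9-fold and 29.2-fold higher with wild type set to a floor of 3 counts. The distal site lies 503 nt past the annotated end and opposite the 3′ part of zip3, the convergent neighbour, whose own reads were 24 and 19 (ratio 1.02, 0.537 to 1.98).

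The hsp9 sequences show the elements beside the main wild-type site and the distal site. Both sites have both kinds of element. TGTA begins 36 and 79 nt after the proximal read end and 13 and 33 nt after the distal one. A poly(A) signal begins 21 nt before the proximal read end (AATGAA) and 31 nt before the distal one (AATAAA). The TGTA nearest to each site and each signal are shown in capitals.
hsp9 TGTA after the proximal site (chrI:5319993-5320022, minus strand): catatctagcaacTGTAttgtttacatata
hsp9 AATGAA before the proximal site (chrI:5320048-5320077, minus strand): tcgatttgaagtAATGAAatatattttccc
hsp9 TGTA after the distal site (chrI:5319425-5319454, minus strand): atcttcataaatgTGTAattttttaatatt
hsp9 AATAAA before the distal site (chrI:5319467-5319496, minus strand): aattaacaagttAATAAAagaactaaaata

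hsp16 encodes the small heat shock protein with an alpha-crystallin domain, and its level was the lowest of the 8 genes in both libraries, although in wild type its interval overlaps that of hsp78. It lies on chromosome II (SPBC3E7.02C, 2660139 to 2660992, minus strand). hsp16 had 50 reads in nmt1-SEB1 against 42 in wild type, 15.1 and 15.6 RPM (ratio 0.964, 0.627 to 1.49). The interval of this ratio holds 1, so no difference was detectable at this depth. Its proximal cluster at 176 nt held 60.4% in nmt1-SEB1 against 82.9% in wild type, with Wilson intervals (46.3 to 73.0 and 68.7 to 91.5) that overlap.

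Reads past hsp16 are counted for another gene. The lncRNA SPNCRNA.1540 begins 39 nt past the annotated hsp16 end on the same strand, and it had 111 reads in nmt1-SEB1 against 4 in wild type (ratio 22.5, 8.54 to 84.0). With lncRNA annotations ignored, hsp16 had 161 and 46 reads, a ratio of 3.01 (2.16 to 4.28), and was called higher. These added reads ended mainly 852 nt past the hsp16 stop codon (52 and 1 reads) and 541 nt past it (43 and 0 reads). Whether those RNAs start at hsp16 or at the lncRNA cannot be told from read ends.

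Of the protein disaggregase genes, hsp104 held its site and hsp78 did not. hsp104 (SPBC16D10.08C, chromosome II, 3612265 to 3615269, minus strand) encodes the cytosolic AAA+ ATPase that pulls proteins out of aggregates. hsp104 had 1428 reads in nmt1-SEB1 against 1972 in wild type, 430.2 and 733 RPM (ratio 0.587, 0.548 to 0.628), which is 1.70-fold lower and short of the 2-fold rule. A single cluster at 71 nt took 95.8% and 99.7% of its reads past the stop codon. Past the annotated end lay 60 reads in nmt1-SEB1 and 0 of 1972 in wild type. That is at least 16.2-fold more with wild type set to the floor. By the Wilson interval, a count of 0 allows a share of up to 0.194% there. Since its second cluster held under 5% in both libraries, hsp104 entered no comparison of 2 clusters.

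hsp78 (SPBC4F6.17C, chromosome II, 2723119 to 2725662, minus strand) encodes the related mitochondrial disaggregase, a role known from budding yeast. hsp78 had 195 reads in nmt1-SEB1 against 47 in wild type, 58.7 and 17.5 RPM (ratio 3.36, 2.43 to 4.73). In wild type its reads ended mainly 100 nt past the stop codon (47.5%) and at 21 nt (32.5%). In nmt1-SEB1 they ended at 511 nt (50.9%) and at 426 nt (29.1%), both well past the annotated end at 116 nt. The wild-type reads were few, so its distal share of 9.52% has a wide Wilson interval (2.65 to 28.9), against 90.8% (83.5 to 95.1) in nmt1-SEB1.

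The higher level of hsp78 rested on reads at the distant ends. With reads counted only to 200 nt past the annotated end, its log2 ratio went from 1.75 to -0.31 and it was no longer called higher. The next gene on that strand, ero11, begins 600 nt past hsp78 and had 1167 and 639 reads (ratio 1.48, 1.34 to 1.63). Upstream of hsp78, the lncRNA SPNCRNA.5792 ends 113 nt before its start, with 859 reads in nmt1-SEB1 against 0 in wild type (at least 232-fold higher with wild type at the floor). SPNCRNA.5792 begins 373 nt past arf1, a GTPase gene on the same strand with 8112 and 22947 reads (ratio 0.286, 0.279 to 0.294). The part of these neighbours in the hsp78 reads was not tested.

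**Figure D2:**
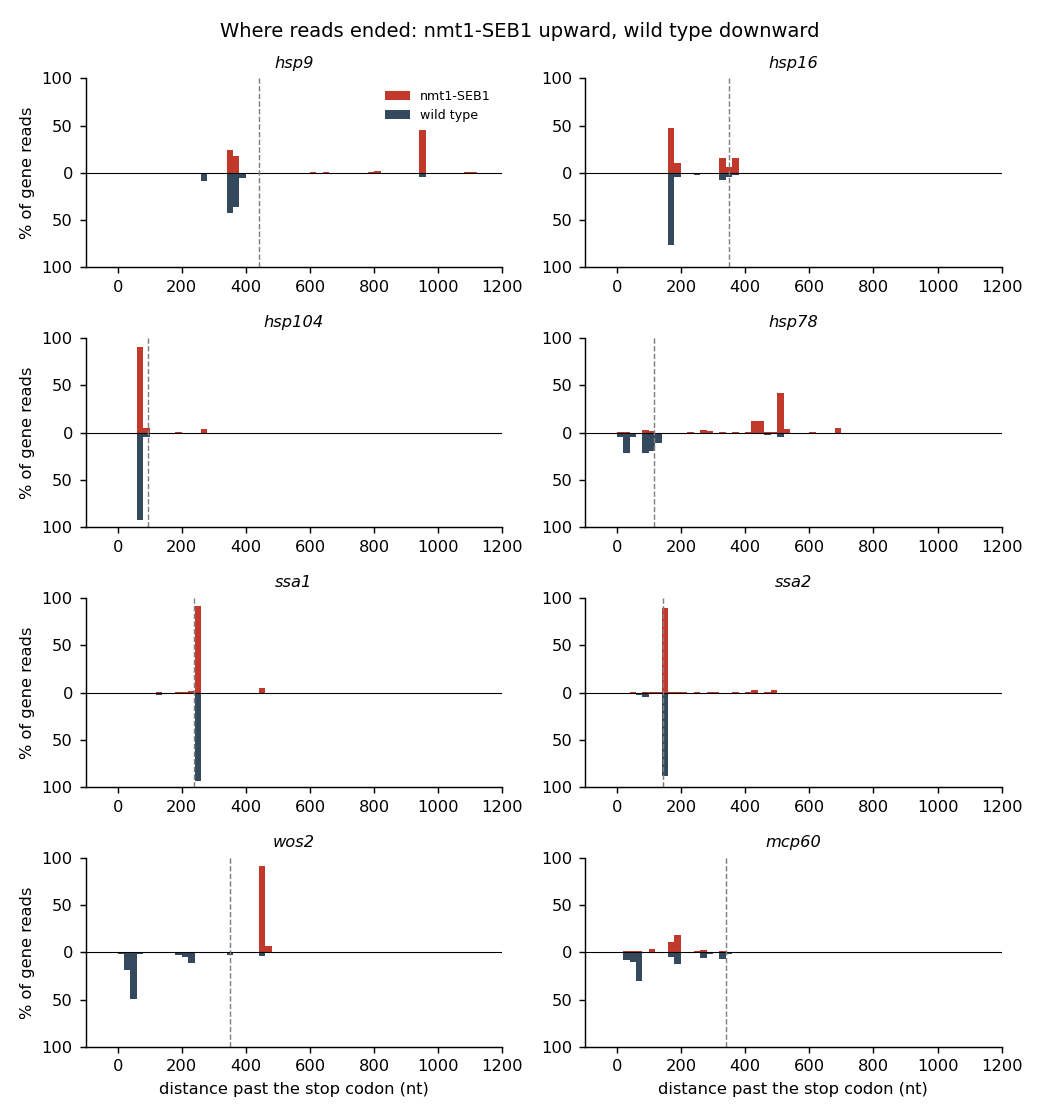
Share of each gene's reads (%) in 20-nt bins by distance past the stop codon, nmt1-SEB1 upward in red and wild type downward in dark; the dashed line is the annotated gene end, and reads more than 100 nt before the stop codon are outside the plot. The main end of wos2 lies at 48 nt in wild type and at 451 nt in nmt1-SEB1, hsp9 has an added end at 945 nt, and hsp104, ssa1 and ssa2 keep their site at 71, 244 and 145 nt.

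ssa1 and ssa2 encode cytosolic Hsp70, the ATPase that binds and releases unfolded proteins, and both kept their main site. Their coding sequences were 82.9% identical, but of the 50 bases before the main site of each gene at most 25 (ssa1) and 26 (ssa2) matched any stretch of the other, so reads long enough to leave the coding part could be told apart. ssa1 (SPAC13G7.02C, chromosome I, 2295580 to 2297964, minus strand) had 359 reads in nmt1-SEB1 against 624 in wild type, 108 and 232 RPM (ratio 0.466, 0.408 to 0.532). ssa2 (SPCC1739.13, chromosome III, 2057043 to 2059331, plus strand) had 1868 and 1643 reads, 563 and 611 RPM (ratio 0.921, 0.862 to 0.985). Of the pair, ssa2 had the higher level in both libraries and ssa1 alone was called lower.

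The main ssa1 cluster, at 244 nt, took 94.1% of its reads past the stop codon in nmt1-SEB1 against 94.9% in wild type. A second ssa1 cluster at 443 nt had 18 reads in nmt1-SEB1 against 0 in wild type. Its distal share was 5.14% (3.28 to 7.98) against 0 of 591, which allows up to 0.646% by the Wilson interval. For ssa2 a cluster at 145 nt, the annotated end, held 92.8% and 89.9%. The proximal ssa2 cluster at 83 nt had 4 and 125 reads, and clusters at 433 and 482 nt had 40 and 45 reads in nmt1-SEB1 against none in wild type. Both Hsp70 genes thus had added distal ends in a small share of their reads. ssa1 kept its main site with 4 TGTA in the 100 nt after it, the nearest 22 nt downstream; that one is shown beside that of ssa2, also 22 nt downstream of its main site.
ssa1 TGTA after the main site (chrI:2295537-2295566, minus strand): taactgtttacaaTGTAgtagttttacttt
ssa2 TGTA after the main site (chrIII:2059340-2059369, plus strand): ctactagtatgacTGTAaatatatgtaagt

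Upstream of ssa1 on its strand the lncRNA SPNCRNA.3031, ending 360 nt before the ssa1 start, had 983 reads in nmt1-SEB1 against 12 in wild type (ratio 66.4, 37.8 to 129). Downstream, erg7 begins 298 nt past ssa1 and had 91 and 37 reads (ratio 1.99, 1.35 to 3.004). The gene upstream of ssa2, ppe1, ends 26 nt inside it and had 673 and 338 reads (ratio 1.61, 1.41 to 1.84). Reads that ended before the ssa2 stop codon numbered 54 and 15 (ratio 2.92, 1.62 to 5.56), most often 173 nt from the gene start (23 and 11 reads), in the 5′ UTR.

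mcp60, which encodes the mitochondrial chaperonin Hsp60, was the lowest of the 8 genes relative to wild type. It lies on chromosome I (SPAC12G12.04, 339766 to 342097, minus strand). mcp60 had 99 reads in nmt1-SEB1 against 653 in wild type, 29.8 and 243 RPM, a ratio of 0.123 (0.0984 to 0.152), or 8.14-fold lower; 1.23% of coding genes had a lower ratio. Past the stop codon, mcp60 had 39 and 565 reads (ratio 0.0559, 0.0393 to 0.0774), which is 17.9-fold lower. Before the stop codon it had 60 and 88 (ratio 0.552, 0.391 to 0.776). Ends past the stop codon were therefore further below wild type than ends before it, and the latter made up 60.6% of the mcp60 reads in nmt1-SEB1 against 13.5% in wild type.

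The reads of mcp60 before its stop codon ended at a few positions. At 17 nt from the gene start there were 15 and 13 reads. At 218 nt, in the 5′ UTR, there were 17 and 27, and inside the coding sequence 151 nt before the stop codon there were 16 and 26. The upstream gene cip2 ends 7 nt inside mcp60 on the same strand and had 165 and 164 reads (ratio 0.815, 0.653 to 1.02), so reads near the mcp60 start may belong to either gene. Past the stop codon the proximal cluster, at 63 nt, had 2 reads in nmt1-SEB1 against 284 in wild type. The cluster at 193 nt had 29 and 121.

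Both mcp60 clusters were lower in nmt1-SEB1, the proximal one more so. The distal share was 93.5% (79.3 to 98.2) against 29.9% (25.6 to 34.5), from 31 and 405 reads. Their sequences are shown because mcp60 combines a moved site with a lower level, unlike wos2; the capital A is again the last base of the most used read end.
mcp60 proximal site (chrI:340029-340058, minus strand): aaaagcttatgattAtgatgatttaaatcc
mcp60 distal site (chrI:339899-339928, minus strand): cttattgttttgaaActtttcattcggcta

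Beyond mcp60, the snoRNA gene sno52 begins 124 nt past the annotated mcp60 end on the same strand. It had 1002 and 243 reads (ratio 3.34, 2.90 to 3.86). Reads that pass mcp60 by more than this distance are counted for sno52 and would not enter the mcp60 values. No alternative setting moved this boundary, and whether sno52 reads stem from mcp60 was not tested. No mcp60 read lay between the annotated end and sno52 in nmt1-SEB1, against 15 in wild type (at least 6.17-fold lower with nmt1-SEB1 at the floor). The convergent neighbour taf9, ending 3 nt past mcp60, had 418 and 285 reads (ratio 1.19, 1.02 to 1.39).

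**Figure D3:**
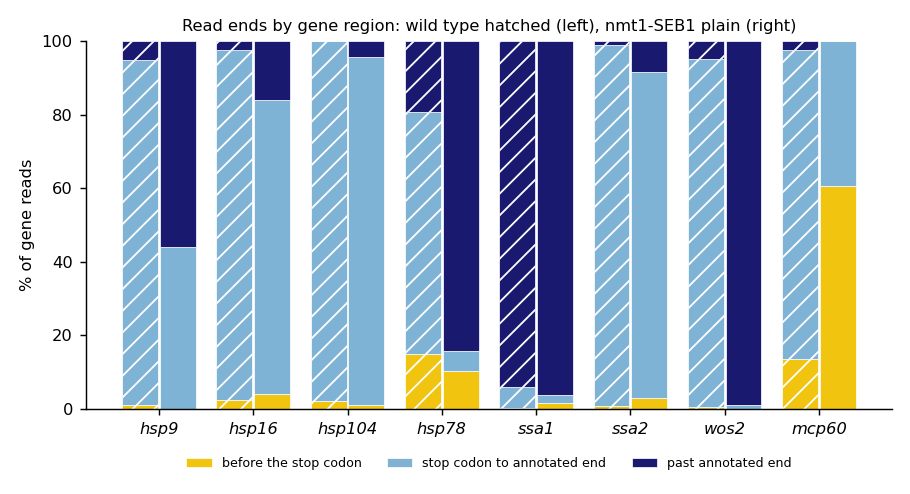
Share of each gene's reads (%) that ended before the stop codon (yellow), between the stop codon and the annotated end (light blue) and past the annotated end (dark blue); wild type is hatched on the left and nmt1-SEB1 plain on the right. Reads past the annotated end make up 98.9% of wos2 in nmt1-SEB1 against 4.89% in wild type; ssa1 is past its annotated end in both (96.1% and 94.1%) because its main site lies 5 nt beyond it.

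Across the 8 genes the mean distance of read ends past the stop codon was longer in nmt1-SEB1 for every gene, by between 8.65 nt (hsp104) and 349 nt (hsp78). It was at least 20 nt longer for 6 of 8, where 73.9% of 3609 coding genes did so and 2.38% moved as far upstream, and shorter by that much for none; the median difference was 42.1 nt for the 8 genes and 64.8 nt for all 3609. wos2 (mean 450.2 nt against 103 nt) and hsp9 (674 nt against 381 nt) followed hsp78 (457 nt against 108 nt). hsp16, mcp60 and ssa2 were 42.6, 41.6 and 24.9 nt longer, and ssa1 and hsp104 13.9 and 8.65 nt. With lncRNA annotations ignored, the hsp16 difference was 328 nt. With reads only to 200 nt past the annotated end, 4 of 8 genes passed 20 nt: hsp9 (17.9 nt) and ssa2 (9.77 nt) did not, and hsp78 was 91.0 nt longer. With the full window and lncRNAs kept as genes, the 3 genes with the longest extension were also the 3 called higher in abundance. mcp60 combined an extension with the lowest ratio. Reads at distant ends enter both values, so the 2 are not independent, and with the 200 nt window hsp78 was not called higher (log2 ratio -0.31). The same comparison over coding genes is not given here.

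Of the 7 genes with 2 clusters to compare, 5 had a distal share at least 10 points higher in nmt1-SEB1 and none had a lower one, where 72% of 2890 coding genes were higher and 5.02% lower. A share of 5 in 7 is near that background. With clusters chosen on wild-type reads alone, which leaves out the distal ends of hsp9 and wos2, their differences were 8.68 and 6.06 points and were not called. The differences were 94.0 points for wos2, 81.3 for hsp78, 63.7 for mcp60, 46.4 for hsp9 and 14.7 for hsp16, and 7.63 and 5.14 points for ssa2 and ssa1. Larger differences than that of wos2 were seen in 1.04% of coding genes. hsp16 passed the 10 points, but its Wilson intervals overlap (27.5%, 16.1 to 42.8, against 12.8%, 5.60 to 26.7). With lncRNA annotations ignored its difference was 61.3 points.

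**Figure D4:**
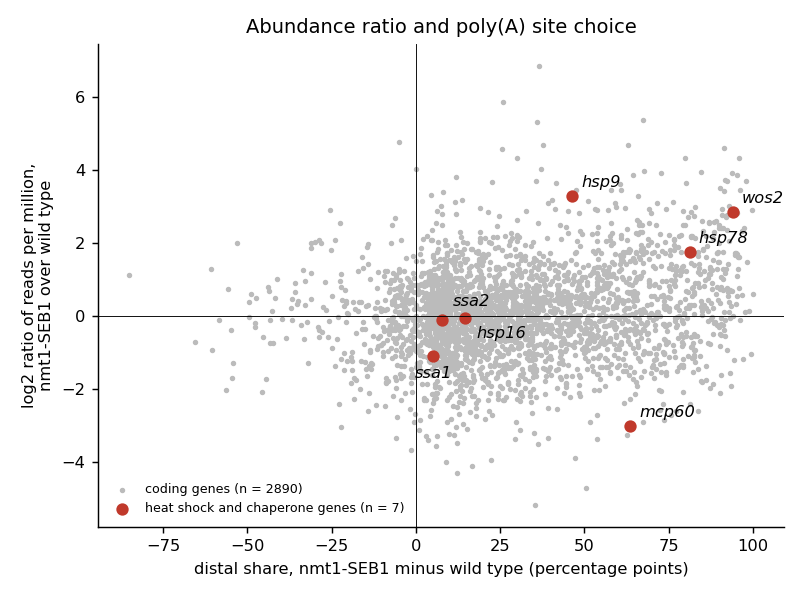
Log2 ratio of RPM (nmt1-SEB1 over wild type) against the difference in distal share (percentage points) for 2890 coding genes in grey and 7 of the heat shock and chaperone genes in red; hsp104 has no pair of clusters. wos2, hsp78 and mcp60 lie at 94.0, 81.3 and 63.7 points with log2 ratios of 2.86, 1.75 and -3.03.

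The 3 genes with the tightest wild-type ends moved least. In wild type the largest cluster took 99.7% of the hsp104 reads past the stop codon, 94.9% of ssa1 and 89.9% of ssa2, whose mean ends differed by under 25 nt. It held 82.9% of hsp16, 80% of hsp9, 70.7% of wos2, 50.3% of mcp60 and 47.5% of hsp78, whose mean ends differed by more. Among these the order was not kept, with a difference of 292 nt for hsp9 and 41.6 nt for mcp60. The same comparison over all coding genes is not given here.

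Read-through, defined as ends beyond 200 nt downstream of the largest cluster, was at least 10 points higher in nmt1-SEB1 for 1 of 8 genes, where 35.1% of 3609 genes passed. That gene was hsp9, with 55.8% (54.5 to 57.1) against 5.22% (3.53 to 7.65). The 1 of 8 cannot be set against 35.1%, because wos2, hsp78 and hsp16 had little or no window left beyond that distance. For ssa2 read-through was 4.91% against 0 of 1628, which allows up to 0.235% by the Wilson interval, and for ssa1 1.42% against 0 of 623. wos2 and hsp78 had none, since their largest cluster over both libraries is already the distal one and the next gene begins soon after it. hsp16 and mcp60 had none in either library, but the next same-strand genes begin 39 nt (SPNCRNA.1540) and 124 nt (sno52) past their annotated ends. With lncRNA annotations ignored, hsp16 had ends at 541 nt (43 and 0 reads) and at 852 nt (52 and 1). In that setting 2 members passed the 10 points.

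Antisense reads over the gene bodies were few in wild type. Of the 4 genes with at least 20 such reads over both libraries, all 4 were higher in nmt1-SEB1 and none lower, while over 3259 coding genes 64.8% were higher and 5.43% lower. hsp78 had 38 and 1 antisense reads (ratio 30.8, 5.20 to 1248) and ssa1 26 and 4 (ratio 5.27, 1.83 to 20.8). hsp104 had 23 and 0 (at least 6.21-fold higher) and mcp60 26 and 0 (at least 7.02-fold higher). Each of the 4 reached 20 reads through nmt1-SEB1 alone. The minimum itself thus favoured a higher call, and no conclusion is drawn from the 4 of 4. The other 4 genes had at most 3 antisense reads in a library.

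TGTA and GTA were searched on the sense strand in the 100 nt after each cluster. TGTA lay after the proximal cluster in 4 of 7 genes (hsp9, hsp78, ssa1 and ssa2), where 62.1% of 2890 coding genes had it, and not in hsp16, wos2 or mcp60. GTA, which every TGTA also holds, lay there in 7 of 7, where 88.7% had it. After the distal cluster TGTA lay in 5 of 7 genes (hsp9, hsp16, ssa2, wos2 and mcp60), where 58.3% of coding genes had it. GTA lay there in 7 of 7, where 88.9% had it. In ssa2 the same TGTA copies count for both clusters: they lie 84 and 94 nt after the proximal end and 22 and 32 nt after the distal one. AATAAA or AATGAA lay in the 50 nt before the proximal cluster in hsp9 and hsp16, 2 of 7 against 25.4% of coding genes. Before the distal cluster 1 of these signals lay in hsp9, hsp16 and ssa2, 3 of 7 against 29.8%.

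Heat shock elements were searched in the 250 bases before and 50 after each gene start as pairs of units, GAANNTTC or TTCNNGAA, each its own reverse complement. At least 1 pair lay in the windows of 5 of 8 genes (hsp16, ssa1, ssa2, wos2 and mcp60), against 19.9% of 5112 coding genes. The windows of hsp9, hsp104 and hsp78 held none in these letters. Of the 24 windows (0.469%) with 3 units in a row, 2 were those of ssa1 and ssa2, printed with the units in capitals as the closest forms of the element among the 8 genes. Genes with the pair were among the higher (wos2), the lower (ssa1, mcp60) and the others (hsp16, ssa2).
ssa1 promoter (chrI:2298001-2298030, minus strand): gggttggtGAAggTTCgaGAAtggacaaag
ssa2 promoter (chrIII:2056976-2057005, plus strand): ggttttggGAAacTTCgaGAAccgtagcct

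The heat shock factor gene hsf1 had 358 reads in nmt1-SEB1 against 212 in wild type (ratio 1.37, 1.15 to 1.63), below the 2-fold rule. Its distal share was 53.6% (46.8 to 60.3) against 15.9% (11.2 to 22.03).

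Other chaperone genes were divided in the same way. Of 51 genes in 7 lists, 49 were tested, 12 were higher and 13 lower, and their median log2 ratio was -0.19. Over all coding genes, 26% were higher and 17% lower, and the counts of each list below stand against these shares. TMM gave 8 higher and 23 lower, and median-of-ratios scaling 7 higher and 24 lower. By median-of-ratios scaling, 12.2% of all coding genes were higher and 36.2% lower. By list, TMM left 5 of 6 Hsp90 genes, 6 of 10 Hsp70 partners and 4 of 6 mitochondrial genes lower. Of the small heat shock and Hsp31 genes, 3 of 6 were then higher and none lower, and the 3 include genes with only 2 wild-type reads each. Of all coding genes 32.2% were then lower and 14.2% higher. Of the 35 with 2 clusters, 28 had a distal share at least 10 points higher in nmt1-SEB1 and 1 had one at least 10 points lower, where 72% and 5.02% of 2890 coding genes did. The 3 genes with the most reads are named for each list.

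Hsp90 and its co-chaperones had 1 of 6 tested genes higher and 3 lower (median log2 -1.11). hsp90 had 1808 and 2790 reads (ratio 0.525, 0.495 to 0.557), the Hsp90 ATPase activator gene aha1 had 247 and 614 (0.326, 0.280 to 0.378) and the cyclophilin gene wis2 had 227 and 337 (0.546, 0.459 to 0.648). wos2, the p23 partner of the same chaperone, lay on the other side at 7.24. hsp90 ended in its distal cluster for 14.9% of the reads in its pair of clusters in nmt1-SEB1 against 0.0743% in wild type, and aha1 for 64.1% against 0.781%.

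Cytosolic Hsp70 partners had 2 of 10 higher and 3 lower (median log2 -0.47). The Hsp40 gene mas5 had 3485 and 8148 reads (ratio 0.347, 0.333 to 0.361), and fes1, whose product releases nucleotide from Hsp70, had 86 and 642 (0.109, 0.0856 to 0.136). The ribosome-associated Hsp70 gene sks2 had 7043 and 8549 (0.667, 0.647 to 0.689). ssa1 was therefore lower along with the Hsp40 gene mas5 and with fes1, while ssa2 was not.

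Mitochondrial chaperones had none of 6 higher and 1 lower (median log2 -0.74). The mitochondrial Hsp70 gene ssc1 had 563 and 860 reads (ratio 0.530, 0.476 to 0.591), and hsp10, the partner of Hsp60, had 404 and 640 (0.511, 0.450 to 0.580). The import motor gene tim44 had 281 and 337 (0.676, 0.575 to 0.794). The ratio of mcp60, 0.123, lay below that of its partner hsp10, and that of hsp78 above both.

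The chaperonin CCT and prefoldin list, whose complexes act in the folding of actin and tubulin, had 4 of 13 higher and 5 lower (median log2 -0.19). cct6 had 608 and 1199 reads (ratio 0.411, 0.372 to 0.453), pfd2 had 670 and 618 (0.878, 0.786 to 0.981) and pfd1 had 910 and 277 (2.66, 2.32 to 3.06). All 10 with 2 clusters had a distal share at least 10 points higher in nmt1-SEB1, as had 72% of coding genes. In the endoplasmic reticulum list 1 of 7 was higher and 1 lower (median log2 -0.01). The Hsp70 gene bip1 had 374 and 938 reads (0.323, 0.286 to 0.365), the protein disulfide isomerase gene pdi1 had 1961 and 1106 (1.44, 1.33 to 1.55) and sil1 had 383 and 317 (0.979, 0.841 to 1.14). bip1 was the gene of the lists with a distal share at least 10 points lower in nmt1-SEB1, at 85.1% (80.7 to 88.6) against 99.6% (99.0 to 99.9).

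Small heat shock and Hsp31 genes had 4 of 6 higher and none lower (median log2 1.76), with 26% of coding genes higher and 17% lower. Among the higher genes, 2 rested on 2 wild-type reads each, against 38 and 23 in nmt1-SEB1. Their ratios have wide intervals (3.98 to 132 and 2.30 to 81.5). hsp20 had 133 and 35 reads (ratio 3.08, 2.11 to 4.605), hsp3101, annotated as a glyoxylase, had 215 and 47 (3.71, 2.69 to 5.20) and hsp3104 had 31 and 16 (1.57, 0.833 to 3.07). hsp20 and hsp3101 also ended further downstream, with distal shares of 91.1% against 25% and 82.5% against 4.88%. Of the small heat shock genes among the 8, hsp9 shared this side, and hsp16 did not while lncRNAs were kept as genes. With lncRNA annotations ignored hsp16 was called higher too (ratio 3.01, 2.16 to 4.28).

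**Figure D5:**
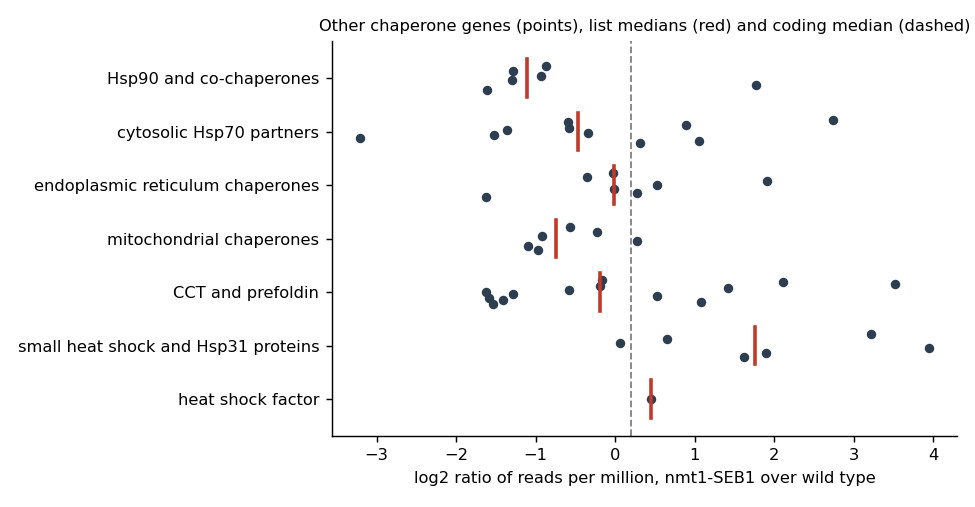
Log2 ratio of RPM (nmt1-SEB1 over wild type) of the 49 other chaperone genes tested, by list; red bars are list medians and the dashed line is the median of coding genes at 0.20. Hsp90 and its co-chaperones have a median of -1.11 and the small heat shock and Hsp31 genes one of 1.76. The latter list includes genes with only 2 wild-type reads each.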

How the data were processed

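The deposited values are read counts: per the labels' protocols and the values (whole numbers, although the protocol text speaks of RPM), each file of the authors gives the number of poly(A) site-supporting reads ending at a position on a strand, without scaling. The submitters' processing notes name Bowtie2 and ASM294v2. The Bowtie2 version and any read filter were not given in these sources. The annotation and genome used here carry the build name ASM294v3. Over 18 sets (3 chromosomes, each cut into 3 stretches, in both libraries), at positions with 50 or more reads, the deposited base was A in 87.7% to 96.6% and the next base in at most 0.942%, against 25.5% to 31.5% for the base after it, so positions were read as counting from 1 on the same nuclear sequence.

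Each read was given to the same-strand gene around it, the one whose annotated 3′ end was nearest if several overlapped, and otherwise to the last gene that ended within 1000 nt before it; lncRNAs were genes in this step, so a gene's window stops at the next same-strand gene. 1 read was worth 0.301 RPM in nmt1-SEB1 and 0.372 in wild type. Ratios carry exact conditional binomial 95% intervals, and shares Wilson intervals. A gene needed 20 reads summed over both libraries. A library with 0 reads was set to 3 counts per library where a fold is printed. Such a fold, printed with "at least", rests on that floor and is not the lower limit of an interval. PCR copies would be counted as separate reads. Read ends past the stop codon within 24 nt of the most used position were gathered into clusters, and the 2 largest by mean share, each with 5% of reads in at least 1 library and together 20 reads in each, were called proximal and distal. Read-through used the largest cluster. The ratio and cluster steps were tested on simulated data. edgeR 4.0.16 gave TMM factors, and Python 3.11.15 with scipy 1.17.1 the rest.

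The members and lists were chosen with earlier results of these data known. Named outside the 8 genes are the 3 genes of each list with the most reads, hsf1, and neighbours. Of 59 symbols looked up for the lists, 53 were found, for 51 genes. The heat shock factor list holds hsf1 alone. Alternatives were TMM and median-of-ratios scaling, other read minimums, lncRNAs ignored, a shorter window past the gene end, reads past the stop codon only, and other cluster and read-through settings. With 1 library per group, no test of the condition was made.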

Additional observations from a re-analysis of the deposited data

How the results depend on the processing

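Of the recomputed values of single genes, 33 of 55 log2 ratios, 23 of 27 distal share differences and 13 of 16 mean end differences stayed within their counting interval (for mean ends, within 20 nt). 1 called value reversed: the log2 ratio of hsp78 was -0.31 when reads beyond 200 nt past the annotated end were dropped, and most of its nmt1-SEB1 reads lie there. Members with a distal share at least 10 points higher numbered 3 with clusters of 10 nt (hsp78, ssa1, ssa2 and mcp60 then lacked a pair), 2 with clusters chosen on wild type alone (hsp9 8.68 and wos2 6.06 points, as their distal sites were then left out; hsp78 and ssa1 lacked a pair) and 3 with the first and last clusters (hsp78 and mcp60 lacked a pair). With reads to 200 nt past the gene end, 4 members had a mean end at least 20 nt longer. Members with higher read-through numbered 2 beyond 100 nt and 2 with lncRNA annotations ignored. For these counts of members, shares over all coding genes at the same settings are not given here, so no background stands beside them. For the chaperone lists, TMM gave 23 lower, and median-of-ratios 7 higher and 24 lower. Over all genes, 3562 were higher and 894 lower; TMM gave 1692 lower, median-of-ratios 1901 lower, lncRNA annotations ignored 1565 higher (with fewer genes tested), and a minimum of 100 reads 1664 higher. No paired analysis was possible because each group has 1 library, and none could be left out. Depth limits hsp16 and hsp78 most, with 42 and 47 wild-type reads.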
